A study of Homo sapiens with 12 samples.

Results

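The 10 genes described here encode transcription factors and effectors of the integrated stress response: ATF4, ATF5, ATF3, DDIT3 (CHOP) and CEBPG among the factors, and TRIB3, CHAC1, PPP1R15A (GADD34), NUPR1 and GDF15 among the effectors. They were chosen by name, as the rows of the count table with these symbols, and are 10 of its 57353 rows. Of these, 9 passed the filter on low counts and were tested in 1 fit with all 14955 genes that passed, and CHAC1 did not pass.

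RNA was sequenced from HepG2, a single human hepatocellular carcinoma line, labelled wild type. Cultures received 10 µM sorafenib, a multikinase inhibitor used against liver cancer, or only its solvent DMSO (vehicle), for 12 h. Lysates of cells treated with cycloheximide, which holds ribosomes on mRNA, were run on sucrose gradients. From each culture a polysome pool (mRNAs with several ribosomes) and a light pool (low-molecular complexes, free 40S and 60S subunits and 80S ribosomes) gave 1 library each. The 4 groups were the sorafenib polysome, vehicle polysome, sorafenib light and vehicle light fractions, with 3 libraries each. The labels call the experiments triplicates, and each treatment and number is taken here as a separate culture, 6 in all. A culture normally joined several dishes, per the labels' protocols.

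The integrated stress response begins when kinases that sense stress phosphorylate the initiation factor eIF2, which slows translation of most mRNAs. Some mRNAs carry short upstream reading frames in their leader that let the main reading frame be translated better in this state; ATF4, ATF5, DDIT3 and PPP1R15A are known examples. ATF4 then activates genes for amino acid supply and further factors such as DDIT3, ATF3 and TRIB3, and PPP1R15A directs the phosphatase that removes the phosphate from eIF2 again.

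Library totals ranged from 511065 to 13336689 counts, and the shallowest were sorafenib light library 2 with 511065 and library 1 with 2060384 counts. Replicates correlated at 0.97 to 0.99 in the sorafenib polysome, 0.94 to 0.96 in the vehicle polysome, 0.84 to 0.96 in the sorafenib light and 0.95 to 0.98 in the vehicle light group (log2 CPM over 8982 genes). Of the 9 tested members, 8 had their lowest value of the group in culture 2 in the sorafenib polysome and 8 in the sorafenib light fraction, and 7 did in both. All 10 hepatocyte markers examined (among them ALB, APOA1 and HNF4A) were counted in every group, and their summed level was 23111 to 30353 CPM in sorafenib polysome, 6529 to 13242 in vehicle polysome, 29453 to 36071 in sorafenib light and 8319 to 16512 in vehicle light libraries. The part of this difference in the results below was not tested. Markers of other cell types stayed low, at up to 43.4 CPM summed over 6 leukocyte markers, 28.1 over 5 endothelial markers and 39.3 over 6 fibroblast or stellate markers in any library, and each of these maxima was in a sorafenib light library. CD3E was at 0 in the sorafenib polysome group, LST1 in the vehicle polysome group, and KDR and TEK in the vehicle light group.

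Levels are given as CPM, counts scaled by edgeR to a fixed library size with TMM factors, so each is a share of that library and not an amount of RNA per cell. In these bulk libraries fewer cells with an mRNA and less of it per cell cannot be told apart. Unfractionated RNA was not analysed here. Whether levels differ between genes is not considered, since counts also depend on transcript length. A gene is said to have risen or fallen where edgeR's quasi-likelihood test gave a Benjamini-Hochberg adjusted p under 0.05 over all 14955 genes tested, and errors of log2 values are standard errors.

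Promoter windows were looked up because several of these genes are known targets of ATF4 and C/EBP factors. RefSeq (GRCh38.p14) gave windows of 250 bases before to 50 after an annotated start for 9 of the 10 genes, all but NUPR1, with 17 windows in all. A gene was counted if any of its windows held the letters, so genes with several windows had more chances to be counted. The letters TGATGNAA, a form of the composite element bound by C/EBP and ATF factors together, were searched on both strands. They occurred in 3 of the 9 genes (33.3%), against 4.46% of all 27303 genes with a window and 2.77% of the 9975 tested genes with one, and in 5 of 21 other ATF4 and CHOP targets (23.8%). Counted by window, they occurred in 3 of 17 (17.6%), against 3.62% of all 35114 windows and 2.05% of the 14454 windows of tested genes. The cAMP response element TGACGTCA occurred in 1 of 9 genes (11.1%), against 2.25% of all genes, 3.7% of tested genes and 0 of 21 other targets, or in 1 of 17 windows (5.88%), against 1.85% of all windows and 2.71% of those of tested genes. The ER stress element, CCAAT and CCACG with any 9 bases between them, occurred in 0 of 9 genes, against 0.0916% of all genes and 0.16% of tested genes. A match describes letters in a window, and binding was not measured. Each of the 4 windows with a match held 1, so none overlapped another. The 4 stretches with a match are shown on the sense strand, 5′ to 3′, with the match in capitals and up to 60 bases of the window on each side, none past the start. They lie at chr1:212565157-212565283 (ATF3, plus strand), chr19:33374011-33374112 (CEBPG, plus strand), chr15:40953221-40953329 (CHAC1, plus strand) and chr19:48872303-48872420 (PPP1R15A, plus strand).
ATF3: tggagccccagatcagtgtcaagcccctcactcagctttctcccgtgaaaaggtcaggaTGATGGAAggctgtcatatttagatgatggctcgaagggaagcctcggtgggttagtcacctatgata
CEBPG: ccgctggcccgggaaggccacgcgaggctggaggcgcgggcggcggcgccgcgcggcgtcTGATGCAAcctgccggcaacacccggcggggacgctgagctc
CHAC1: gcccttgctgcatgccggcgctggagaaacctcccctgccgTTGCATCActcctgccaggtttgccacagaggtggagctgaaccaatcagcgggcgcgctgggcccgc
PPP1R15A: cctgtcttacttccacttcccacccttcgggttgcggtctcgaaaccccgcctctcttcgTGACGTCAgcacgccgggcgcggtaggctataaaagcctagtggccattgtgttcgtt
The first base of the match was 191 bases before the start of its window in ATF3, 42 in CEBPG, 209 in CHAC1 (on the minus strand) and 58 in PPP1R15A. ATF3 and CEBPG each have another annotated start, whose window held no match (chr1:212614768-212615067 and chr19:33373459-33373758).

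On polysomes 6 of the 9 tested members rose with sorafenib and 1 fell, with a median log2 fold change of 1.88, against a median of -0.26 over all genes tested. In that comparison 20.9% of all genes rose and 28.8% fell, so 49.7% were called. In the light fraction 3 members rose and 2 fell, with a median of 0.54 against -0.12 over all genes, where 11.7% of all genes rose and 17.7% fell (29.4% in all). These shares over all genes depend on scaling: with another library as TMM reference, 3271 to 3958 genes rose and 2999 to 4061 fell on polysomes, against 3130 and 4306 here, and with library totals 3650 rose and 1316 fell in the light fraction, against 1752 and 2648 here. The 3 sorafenib libraries lay above all 3 vehicle libraries on polysomes for 6 members and below them for 1 (25.3% and 35% of all genes), and in the light fraction for 3 and 2 (15% and 24.6% of all genes). The effect of sorafenib was more positive on polysomes than in the light fraction for 4 members and more negative for 0, while 12.8% of all genes passed this test of the difference (interaction) in the higher and 10.7% in the lower direction, 23.6% in all. ATF3 and NUPR1 rose in both fractions. DDIT3, PPP1R15A, GDF15 and CEBPG passed only on polysomes, where they rose. ATF4 (a fall) and TRIB3 (a rise) passed only among the light libraries, and ATF5 fell in both fractions.

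**Figure D1:**
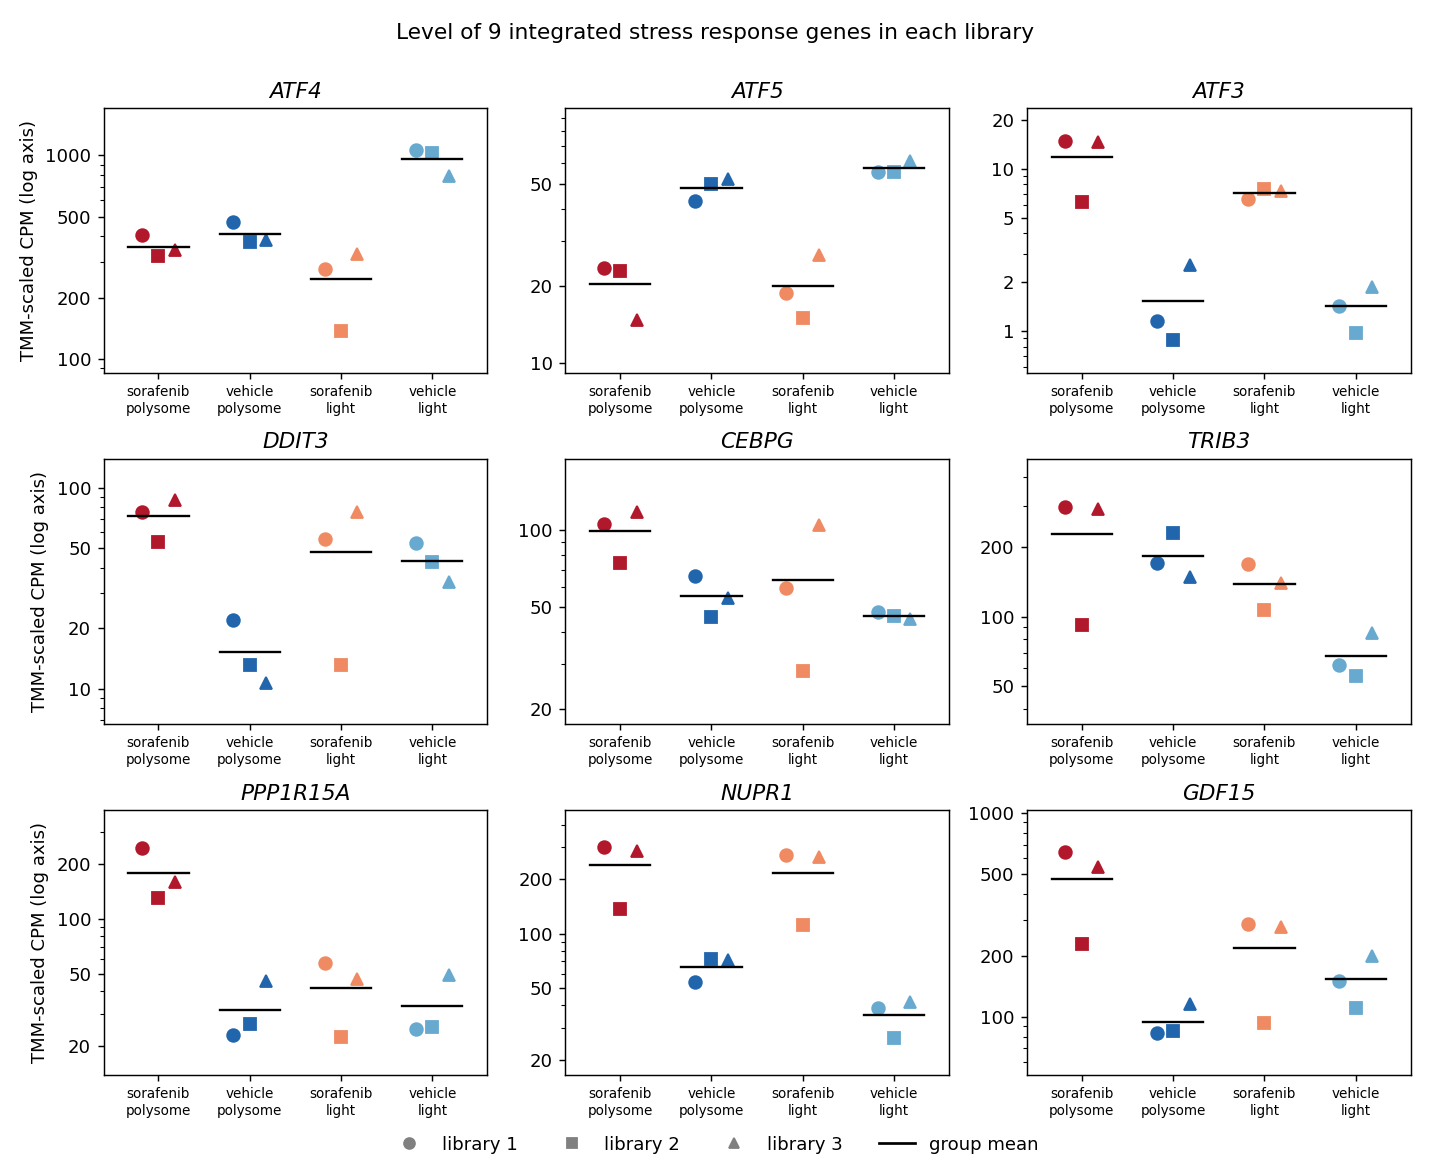
TMM-scaled CPM (log axis) of the 9 tested genes in each of the 12 libraries, by group; marker shapes give the library number and black bars the group mean of 3. ATF3 and NUPR1 lie higher in all sorafenib than in all vehicle libraries of the same fraction, whereas ATF4 is highest in the vehicle light libraries (788 to 1063 CPM).

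ATF4, the central factor of the response, stood out by its light fraction. Its polysome level was 406, 319 and 344 CPM in the sorafenib libraries, against 469, 375 and 383 CPM in the vehicle libraries. Its light-fraction level was 277, 137 and 326 CPM with sorafenib, against 1063, 1021 and 788 CPM with vehicle. The polysome libraries of both treatments overlapped, whereas every sorafenib light library was below every vehicle light library. Among light libraries ATF4 fell to a mean of 246 ± 98.1 CPM with sorafenib, against 957 ± 148 CPM with vehicle (SD, n = 3 each), a log2 fold change of -1.94 ± 0.29 (3.83-fold lower, adjusted p = 0.000142). Its polysome log2 fold change was -0.20 ± 0.28 (adjusted p = 0.574), and its sign depended on the scaling, with 0.02 when each fraction was scaled by itself. The median of all genes was -0.26 in the main fit and -0.03 with that scaling, so ATF4 was near the median in both. The difference between both effects was 1.74 ± 0.40 (adjusted p = 0.00417). In vehicle cells ATF4 was lower on polysomes than in the light fraction (log2 -1.23 ± 0.29, adjusted p = 0.00234), and this call was lost when TMM was computed within each fraction (-0.58) or library totals were used (-0.34). The median of all genes was 0.58 and 0.82 with these scalings, against -0.06 in the main fit. ATF4 lay below that median in each. In sorafenib cells the ratio was 0.51 ± 0.28 (adjusted p = 0.195). From high to low, the group means ran vehicle light, vehicle polysome, sorafenib polysome and sorafenib light, and only the first step separated libraries that did not overlap. Pseudogene rows of ATF4 took few counts, with 1, 0, 218 and 27 summed over the 12 libraries in ATF4P1 to ATF4P4.

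ATF5, a related factor whose main reading frame also lies behind upstream frames and which supports expression of mitochondrial chaperones, fell in both fractions. The sorafenib polysome libraries had 23.5, 22.8 and 14.7 CPM, against 42.7, 50.0 and 52.0 CPM in vehicle. Sorafenib light libraries had 18.8, 15.0 and 26.4 CPM, against 55.4, 55.3 and 61.4 CPM in vehicle, with as few as 8 counts behind a sorafenib value. No sorafenib library reached a vehicle library of its fraction. The log2 fold changes were -1.24 ± 0.23 on polysomes (adjusted p = 0.000254; -0.84, adjusted p = 0.0526, with no filter on low counts) and -1.42 ± 0.26 in the light fraction (adjusted p = 0.000592). The difference between the effects was 0.17 ± 0.34 (adjusted p = 0.758), and it was -0.03 without sorafenib culture 2, so its sign is unsettled. ATF5 overlaps other annotated genes (MIR4751, NUP62 and IL4I1), and it is not known here how counting treated shared reads or strand.

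ATF3, an early stress factor that acts mainly as a repressor, rose in both fractions from few counts. Its sorafenib polysome libraries had 14.7, 6.19 and 14.5 CPM, against 1.16, 0.886 and 2.54 CPM in vehicle. Light libraries had 6.46, 7.48 and 7.24 CPM with sorafenib, against 1.43, 0.975 and 1.87 CPM with vehicle, which rest on 11, 4 and 31 counts and on 9, 8 and 9 counts. All sorafenib libraries were above all vehicle libraries of the same fraction. The rise was 2.87 ± 0.41 on the log2 scale on polysomes (7.32-fold, adjusted p = 2.41e-05) and 2.34 ± 0.51 in the light fraction (5.05-fold, adjusted p = 0.00237). These effects did not differ past the threshold (difference 0.54 ± 0.66, adjusted p = 0.601). By its polysome log2 fold change, ATF3 had rank 78 from the top among the 14955 genes tested.

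DDIT3 encodes CHOP, which ATF4 induces and which turns on genes of apoptosis and of recovery from translational arrest. On polysomes it had 75.8, 53.5 and 86.6 CPM with sorafenib, against 21.9, 13.1 and 10.7 CPM with vehicle. Its light-fraction levels were 55.8, 13.1 and 75.4 CPM with sorafenib, against 52.8, 42.5 and 34.0 CPM with vehicle. The polysome groups did not overlap, whereas the sorafenib light libraries lay on both sides of the vehicle ones, and the low one rests on 7 counts. DDIT3 rose by 2.23 ± 0.37 on polysomes (4.69-fold, adjusted p = 8.58e-05). Its light-fraction value was 0.29 ± 0.37 (adjusted p = 0.572), with -0.16 when sorafenib light library 3 was left out and 0.74 at the other end of the libraries left out in turn. The difference between the effects was 1.94 ± 0.51 (adjusted p = 0.0101). Without the drug, DDIT3 was lower on polysomes than in the light fraction (log2 -1.49 ± 0.36, adjusted p = 0.00336), which was lost with library totals (-0.60) or TMM within each fraction (-0.83). The median of all genes was 0.82 and 0.58 with these scalings, against -0.06 in the main fit. DDIT3 lay below that median in each. With sorafenib the polysome over light ratio of DDIT3 was 0.44 ± 0.36 (adjusted p = 0.393). The end of DDIT3 overlaps MARS, the methionyl-tRNA synthetase gene, with 5413 counts over the 12 libraries, so its own count is uncertain to the extent that reads were shared.

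CEBPG, which dimerises with ATF4, rose on polysomes with the smallest log2 fold change of the 6 members that did. The values were 106, 74.6 and 118 CPM in sorafenib polysome libraries, against 66.1, 45.7 and 54.2 CPM in vehicle ones. They were 59.3, 28.1 and 105 CPM in sorafenib light libraries, against 47.7, 46.4 and 45.0 CPM in vehicle ones. The polysome groups did not overlap and the light groups did, with a coefficient of variation of 60.3% in the sorafenib light group and 2.92% in the vehicle light group. The log2 fold change was 0.84 ± 0.30 on polysomes (adjusted p = 0.0238), and the call was lost without sorafenib polysome library 1 or 3 or vehicle polysome library 2 or 3 (adjusted p = 0.0864, 0.124, 0.111 and 0.066). Its light-fraction value was 0.57 ± 0.31 (adjusted p = 0.174), with 0.97 (adjusted p = 0.0105) without sorafenib light library 2 and -0.01 without library 3. The difference between the effects was 0.28 ± 0.43 (adjusted p = 0.681; 1.12, adjusted p = 0.0463, without sorafenib light library 3; -0.23 without both shallow libraries). With culture as a block, CEBPG was higher on polysomes than in the light fraction of sorafenib cells (0.71, adjusted p = 0.0383), against 0.53 ± 0.30 (adjusted p = 0.207) without it.

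**Figure D2:**
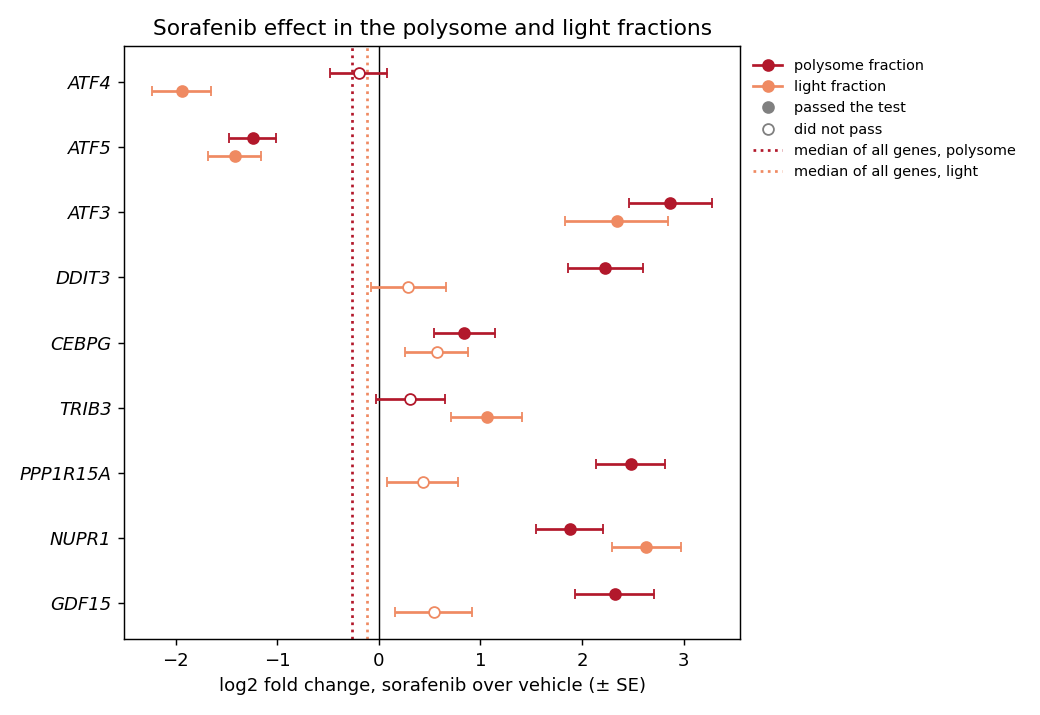
Log2 fold change of sorafenib over vehicle (x axis, ± SE) for the 9 tested genes in the polysome and the light fraction; filled points passed the test and dotted lines mark the medians of all genes tested. PPP1R15A (2.48 against 0.43), GDF15 (2.32 against 0.54) and DDIT3 (2.23 against 0.29) show wide gaps between polysome and light effects, and ATF4 shows its gap on the side of the light-fraction fall (-0.20 against -1.94).

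Among the effectors, PPP1R15A and GDF15 rose on polysomes with a tested difference from the light fraction. PPP1R15A is the regulatory subunit that brings protein phosphatase 1 to eIF2. Its polysome levels were 245, 130.4 and 158 CPM with sorafenib, against 23.1, 26.4 and 45.8 CPM with vehicle. Its light levels were 56.9, 22.4 and 46.7 CPM with sorafenib, against 24.8, 25.6 and 49.4 CPM with vehicle. The 3 sorafenib polysome libraries were above the other 9, which all lay between 22.4 and 56.9 CPM. PPP1R15A rose by 2.48 ± 0.34 on polysomes (5.57-fold, adjusted p = 1.81e-05), and its light-fraction value was 0.43 ± 0.35 (adjusted p = 0.378). The difference between these was 2.05 ± 0.49 (adjusted p = 0.00496). Within sorafenib cultures it was higher on polysomes than in the light fraction by 2.00 ± 0.36 (3.99-fold, adjusted p = 0.000538), with -0.05 ± 0.34 in vehicle cultures (adjusted p = 0.922). The vehicle value was 0.57 with TMM within each fraction and 0.84 with library totals. With these scalings the median of all genes in vehicle cultures was 0.58 and 0.82. The PPP1R15A ratio in sorafenib cells had rank 161 from the top among all genes tested, whose median was 0 on the log2 scale.

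GDF15, a secreted cytokine of the TGF-beta superfamily that is released by stressed cells and lowers appetite, followed a like course. The polysome libraries had 645, 228 and 544 CPM with sorafenib, against 83.2, 85.4 and 115 CPM with vehicle. The light libraries had 285, 93.5 and 276 CPM with sorafenib, against 150.4, 111 and 199 CPM with vehicle. The polysome groups were apart, and in the light fraction sorafenib library 2 was below all vehicle libraries while libraries 1 and 3 were above them. GDF15 rose by 2.32 ± 0.39 on polysomes (4.99-fold, adjusted p = 0.000107). Its light-fraction value was 0.54 ± 0.38 (adjusted p = 0.298), and without sorafenib light library 2 it was 1.00 (adjusted p = 0.0285). The difference between the effects was 1.78 ± 0.53 (adjusted p = 0.0208) without a block and 1.82 with culture as a block (adjusted p = 0.000532). The call without a block was lost without sorafenib polysome library 1 (1.52, adjusted p = 0.0682) or 3 (1.71, adjusted p = 0.0517). It was also lost without vehicle polysome library 2 (1.76, adjusted p = 0.0525). Without both shallow libraries, which leaves 1 sorafenib light library, the difference was 1.57. In sorafenib cells GDF15 was higher on polysomes than in the light fraction (1.09 ± 0.38, adjusted p = 0.0415), although the libraries overlapped and the call was lost without sorafenib polysome library 1 or 3 or sorafenib light library 2 (0.84, 1.03 and 0.89). In vehicle cells the ratio was -0.70 ± 0.38 (adjusted p = 0.160), and with culture as a block it was -0.67 (adjusted p = 0.0345). MIR3189, which lies inside GDF15, took 19 counts in all.

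NUPR1 is a small chromatin-binding stress protein that is induced through ATF4. On polysomes it had 301, 137 and 285 CPM with sorafenib, against 53.8, 71.8 and 71.2 CPM with vehicle. Its light-fraction levels were 271, 112 and 264 CPM with sorafenib, against 38.5, 26.4 and 41.7 CPM with vehicle. Each sorafenib library was above each vehicle library of its fraction, with culture 2 lowest among the sorafenib libraries. The rise was 2.63 ± 0.34 in the light fraction (6.19-fold, adjusted p = 4.43e-05) and 1.88 ± 0.33 on polysomes (3.67-fold, adjusted p = 0.000144). The difference of polysome minus light was -0.75 ± 0.45 (adjusted p = 0.247). Both rises passed the test under every one of the 35 alternatives tried for each. In vehicle cells NUPR1 was higher on polysomes than in the light fraction (0.89 ± 0.33, adjusted p = 0.0395), a call that 11 of 35 alternatives lost. Leaving out vehicle light library 1, 2 or 3, vehicle polysome library 2 or 3 or sorafenib polysome library 3 each ended it, at values of 0.75 to 1.03.

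TRIB3, a pseudokinase that ATF4 and CHOP induce and that binds ATF4 in turn, rose in the light fraction. Sorafenib polysome libraries had 299, 92.4 and 293 CPM, against 171, 231 and 149 CPM in vehicle. Sorafenib light libraries had 169, 107 and 140.1 CPM, against 61.9, 55.2 and 85.3 CPM in vehicle. On polysomes sorafenib library 2 was below all vehicle libraries and the others were above them, whereas the light groups did not overlap. The log2 fold change was 1.06 ± 0.35 in the light fraction (2.08-fold, adjusted p = 0.0285), and it was lost without sorafenib light library 1 or 3 or vehicle light library 1 or 2 (adjusted p = 0.0958, 0.0544, 0.0811 and 0.0957). On polysomes it was 0.31 ± 0.34 (adjusted p = 0.454), and without sorafenib culture 2 it was 0.80 (adjusted p = 0.0112). The difference between the effects was -0.75 ± 0.48 (adjusted p = 0.282). TRIB3 was higher on polysomes than in the light fraction of vehicle cells (1.45 ± 0.35, adjusted p = 0.00287), and in sorafenib cells the ratio was 0.70 ± 0.34 (adjusted p = 0.143; 1.13, adjusted p = 0.0113, without sorafenib polysome library 2).

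CHAC1, an enzyme that breaks down glutathione and is a known ATF4 target, was close to absent from the table. It had 0 counts in each of the 6 sorafenib libraries, that is 0 of 33392681 polysome counts and 0 of 7560761 light counts, which allow up to 0.0898 and 0.397 CPM. Vehicle polysome libraries held 2, 1 and 1 counts, and vehicle light libraries 0, 0 and 1. Whether the counting or the gene annotation left out reads of CHAC1 could not be checked here, so the zeros describe this row of the table and not the level of its mRNA. At this depth no difference was detectable, and CHAC1 was not tested. These limits cover counting error only.

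The light and polysome libraries of a culture share its lysate, so the ratio of both was also taken within each culture. For ATF4 the log2 ratio of polysome over light was 0.55, 1.22 and 0.08 in sorafenib cultures 1 to 3, against -1.18, -1.44 and -1.04 in vehicle cultures. For DDIT3 it was 0.44, 2.01 and 0.20 in sorafenib cultures, against -1.26, -1.68 and -1.64 in vehicle cultures. For PPP1R15A it was 2.10, 2.53 and 1.75 in sorafenib cultures, against -0.10, 0.04 and -0.11 in vehicle cultures. In each of these genes every sorafenib culture exceeded every vehicle culture. The same held for GDF15, with 1.18, 1.28 and 0.98 in sorafenib cultures, against -0.85, -0.38 and -0.79 in vehicle cultures. For NUPR1 the order was the opposite, with 0.15, 0.29 and 0.11 in sorafenib cultures, against 0.48, 1.43 and 0.77 in vehicle cultures, although the interaction did not pass. TRIB3 overlapped between treatments (0.82, -0.21 and 1.06 in sorafenib cultures, against 1.46, 2.06 and 0.80 in vehicle cultures), as did ATF5, ATF3 and CEBPG. The share of all genes whose ratios separate the treatments in this way was not computed, so these orders cannot be called particular to the members. In the test of the difference 12.8% of all genes were more positive on polysomes and 10.7% more negative. The highest sorafenib ratios of ATF4, DDIT3, PPP1R15A and GDF15 were in culture 2, whose light library held 73, 7, 12 and 50 counts of them. Of the 9 members, 2 rose on polysomes over light in sorafenib cells (PPP1R15A and GDF15, where 13.4% of all genes rose, 12.4% fell and 25.8% were called) and 2 rose and 2 fell in vehicle cells (where 18.3% rose, 17.8% fell and 36.1% were called). Without overlap between libraries, 1 member was higher on polysomes in sorafenib cells (22.1% of all genes), and 2 were higher and 3 lower in vehicle cells (23.2% and 25.1% of all genes). With library totals in place of TMM, the mean ratios were 1.19, 1.45, 2.70 and 1.72 in sorafenib cultures for ATF4, DDIT3, PPP1R15A and GDF15, against -0.34, -0.65, 0.82 and 0.21 in vehicle cultures. The counts called within a treatment depend on how the fractions were scaled. With TMM computed within each fraction, 9 of 9 members rose in sorafenib cells and 0 fell in vehicle cells. In that setting 7041 of all 14955 genes rose in sorafenib cells and 1129 fell in vehicle cells. That scaling also moved the median of all genes to 0.79 in sorafenib cells and 0.58 in vehicle cells.

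**Figure D3:**
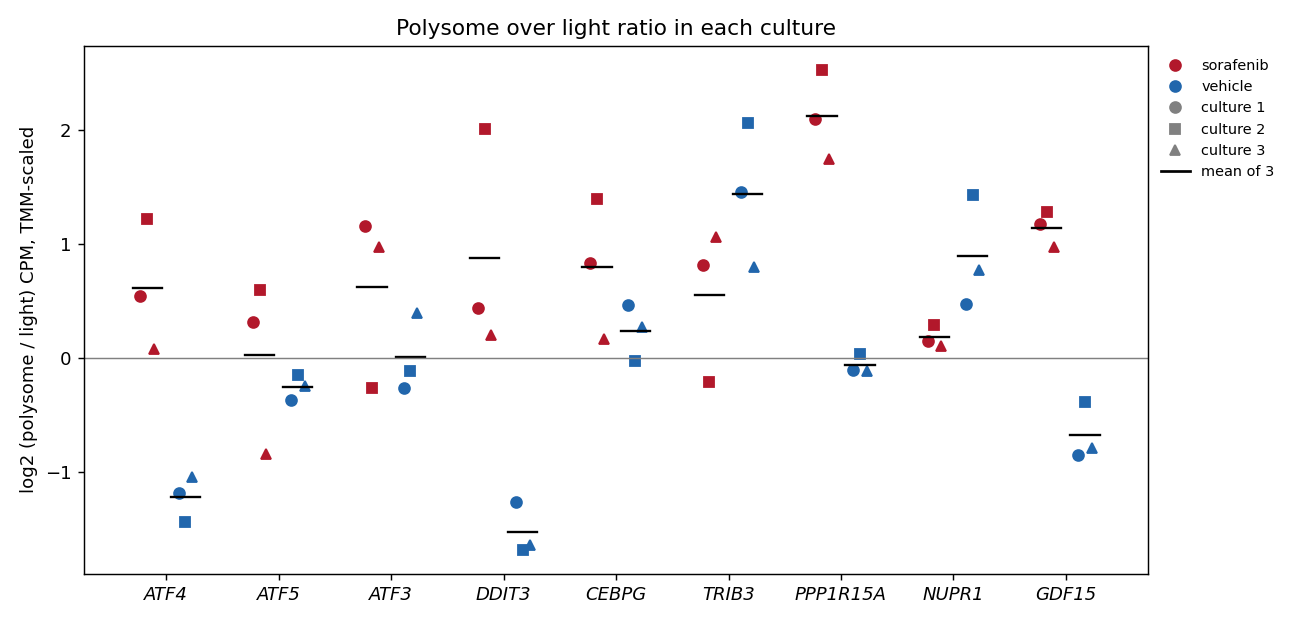
Log2 ratio of polysome over light TMM-scaled CPM (y axis) within each of the 6 cultures for the 9 tested genes; marker shapes give the culture number and black bars the mean of 3. Sorafenib cultures lie above vehicle cultures for ATF4, DDIT3, PPP1R15A and GDF15 (means 0.62, 0.88, 2.13 and 1.15, against -1.22, -1.53, -0.06 and -0.67). The share of all genes separated in this way was not computed.

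The members did not share one profile. Across the 12 libraries, centred log2 CPM profiles were most alike for PPP1R15A and GDF15 (root-mean-square distance 0.50) and for ATF4 and ATF5 (0.51), followed by ATF3 and NUPR1 (0.57) and DDIT3 and GDF15 (0.59). The widest distance was between ATF5 and ATF3 (2.02). Among 8974 other tested genes of average log2 CPM 3 or more, the profiles nearest to ATF4 were those of WWP1 (0.27), NT5C3B (0.28) and NSMF (0.28). Nearest to ATF5 were TMEM74B (0.18), USB1 (0.19) and RHOF (0.19). All 6 of these neighbours had negative log2 fold changes with sorafenib in both fractions. This follows largely from the way they were picked, by likeness over the same 12 libraries, and is no separate result. Nearest to ATF3 were AL080251.1 (0.45), AL691482.3 (0.45) and AXIN2 (0.47), and nearest to CEBPG were AL353807.3 (0.20), SMNDC1 (0.20) and SIAH2 (0.21). DDIT3 was nearest to SHMT2 (0.35), which encodes a mitochondrial enzyme of one-carbon metabolism, and to XRCC1 (0.37) and RSRC2 (0.37).

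The wider pathway was read from lists of genes chosen for their roles. The lists were made with earlier results of these data known, so their shares are descriptions and no independent support. Other known targets of ATF4 and CHOP rose on polysomes in 16 of 25 tested genes (64%) and fell in 1 (4%), with a median log2 fold change of 1.25, against 20.9% and 28.8% of all genes. In the light fraction 9 rose (36%) and 0 fell, with a median of 0.45, against 11.7% and 17.7% of all genes. The cystine and amino acid transporter subunit SLC3A2 rose by 3.47 ± 0.40 on polysomes (adjusted p = 2.96e-06) and by 1.63 ± 0.38 in the light fraction. PHGDH, which commits 3-phosphoglycerate to serine synthesis, rose by 2.89 ± 0.26 on polysomes and 1.33 ± 0.26 in the light fraction, and PCK2, a mitochondrial PEP carboxykinase, by 2.83 ± 0.27 and 0.90 ± 0.26. DDIT4, an inhibitor of mTORC1, rose by 2.01 ± 0.26 on polysomes (adjusted p = 9.15e-06), with 0.43 ± 0.28 in the light fraction (adjusted p = 0.259). PSAT1, the second enzyme of serine synthesis, rose by 1.73 ± 0.29 in the light fraction, and its polysome value was 0.66 ± 0.28 (adjusted p = 0.0568). The gene that fell was EIF4EBP1, an inhibitor of cap-dependent initiation named after its values were seen, with -1.33 ± 0.22 on polysomes, whereas it rose by 0.88 ± 0.23 in the light fraction. In the test of the difference 7 of the 25 were more positive on polysomes (28%) and 1 was more negative (4%), against 12.8% and 10.7% of all genes, with a median of 0.79 against 0.02 over all genes.

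Of 13 other mRNAs known for upstream reading frames and translation under eIF2 phosphorylation, 1 rose (7.69%) and 3 fell (23.1%) on polysomes, against 20.9% and 28.8% of all genes, with a median log2 fold change of 0. In light libraries 0 rose and 5 fell (38.5%), against 11.7% and 17.7% of all genes, with a median of -0.36. EPRS, the glutamyl-prolyl-tRNA synthetase, rose by 1.40 ± 0.36 on polysomes (adjusted p = 0.00391) while its light-fraction change was -1.67 ± 0.40 (adjusted p = 0.00399). Its difference between the fractions was 3.07 ± 0.54 (adjusted p = 0.000524) against -0.75 to 2.05 in the 9 members. PNRC2, SAT1 and C19orf48 fell in both fractions, with polysome values of -1.42 ± 0.25, -1.40 ± 0.28 and -0.97 ± 0.24 and light values of -0.95 ± 0.27, -1.15 ± 0.28 and -1.93 ± 0.26. IBTK, named after its values were seen, was the other gene that fell in the light fraction (-0.71 ± 0.25, adjusted p = 0.0372), a call kept in 9 of 35 alternatives (adjusted p up to 0.414), and PNRC2 kept its light-fraction call in 28 of 35. EPRS and C19orf48 (0.97 ± 0.35, adjusted p = 0.0491) were the 2 of 13 (15.4%) that passed the test of the difference, close to the 12.8% of all genes that were more positive on polysomes, and C19orf48 kept its call in 18 of 34 alternatives.

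Partner and related bZIP factors, which can dimerise or share sites with the members, rose on polysomes in 12 of 28 tested genes (42.9%) and fell in 3 (10.7%), against 20.9% and 28.8% of all genes, with a median log2 fold change of 0.46. Among light libraries 7 rose (25%) and 2 fell (7.14%), against 11.7% and 17.7% of all genes, with a median of 0.28. JUN, a subunit of AP-1 and a known partner of ATF3, rose by 3.41 ± 0.38 on polysomes (adjusted p = 2.11e-06) and by 1.28 ± 0.38 in the light fraction, a difference of 2.13 ± 0.52 (adjusted p = 0.00567). JUNB rose by 2.83 ± 0.39 and 2.05 ± 0.41, the ER-anchored factor CREB3L2 by 1.91 ± 0.25 and 1.13 ± 0.26, and MAFF by 1.72 ± 0.26 and 1.61 ± 0.31 on polysomes and in the light fraction. The genes that fell, named after their values were seen, were XBP1, which acts in the unfolded protein response, in both fractions (-0.81 ± 0.30 on polysomes and -1.16 ± 0.30 in the light fraction), FOSL1 (-1.17 ± 0.38) and CREB3 (-0.75 ± 0.23) on polysomes, and NFE2L1 in the light fraction (-0.70 ± 0.24). Each of these calls was lost under some of the alternatives: XBP1 kept its polysome call in 10 of 35 and its light call in 31 of 35, CREB3 kept its call in 15 of 35, FOSL1 in 26 of 34 and NFE2L1 in 13 of 35 (adjusted p up to 0.697 for XBP1 and CREB3 on polysomes, 0.125 for FOSL1 and 0.407 for NFE2L1). Besides JUN, ATF6B (1.13 ± 0.40) and NFE2L1 (1.67 ± 0.32) were more positive on polysomes in the test of the difference, so 3 of 28 (10.7%), close to the 12.8% of all genes, were more positive and 0 were more negative. ATF6B kept this call in 25 of 33 alternatives (adjusted p up to 0.191) and NFE2L1 in 34 of 34.

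**Figure D4:**
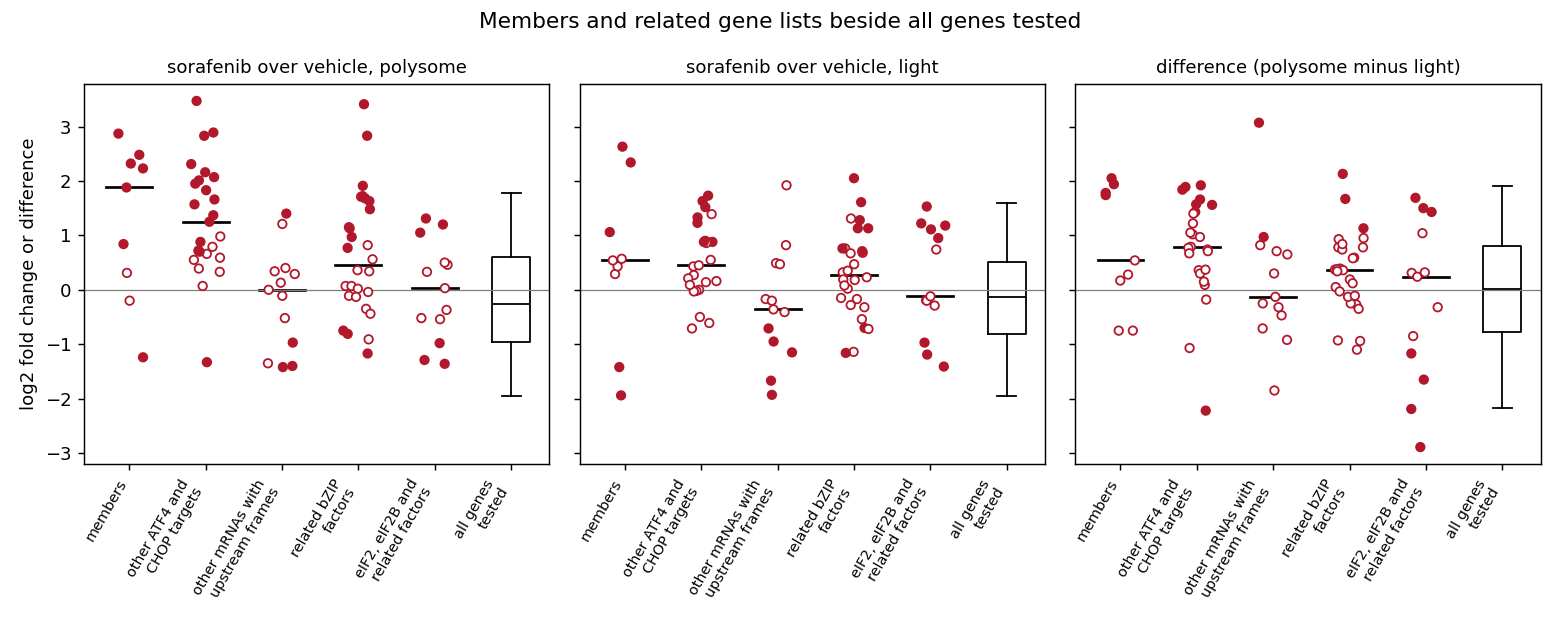
Log2 fold change of sorafenib over vehicle on polysomes and in the light fraction, and the difference between both (y axis), for the 9 tested members, 4 related gene lists and all 14955 genes tested; filled points passed the test, bars are list medians, and the box gives quartiles with whiskers from percentile 5 to percentile 95. Medians on polysomes are 1.88 for the members, 1.25 for other ATF4 and CHOP targets and -0.26 for all genes.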

How the data were processed

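RNA of pooled gradient fractions was sequenced in 12 libraries, 3 per combination of treatment and fraction. The deposited values are whole-number counts per gene, not normalized by the authors as far as the values show. The series is described as ribosome profiling, whereas the labels' protocols describe RNA of pooled fractions. Per the submitters' processing notes the genome build was GRCh38.p12. Details not given in the sources used here: aligner, counter, gene annotation, and whether strand was used.

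The test was run with edgeR 4.0.16 (R 4.3.3) on all 12 libraries, with 1 mean per group and no block. The filterByExpr function kept 14955 of 57353 rows; rows left out held 0.15% to 4.54% of a library's counts. TMM factors were 0.637 to 1.41, with sorafenib light library 2 as the automatic reference, and the common biological coefficient of variation was 0.245. The quasi-likelihood test gave p-values adjusted over all tested genes, with a threshold of 0.05. Standard errors were obtained by dividing the size of a log2 fold change by the root of its F. Ratios within a culture used log2 CPM with a prior count of 2. Alternatives used limma 3.58.1 and DESeq2 1.42.0 besides edgeR, other scalings, filters and blocks, thinning, and libraries or cultures left out. Scripts were tested on simulated data. Figures were drawn with matplotlib 3.10.9.

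Totals of 511065 to 13336689 counts set the precision, and values of the sorafenib light fraction rest on the fewest counts. The labels call the experiments triplicates; if replicates are not separate cultures, p-values then describe just the spread among libraries, which may be technical. Counts of replicate pairs differed by more than sampling noise, with a chi-square of 7.24 to 47.6 for each degree of freedom. Equal treatment and number mark the fractions of 1 culture, per the labels, and the deviations of such pairs correlated at 0.12, 0.08 and 0.06 in sorafenib and 0.20, -0.06 and 0.41 in vehicle cultures. The column names of sorafenib polysome library 3 and vehicle light library 1 both carry S1, and the labels do not say what this stands for.

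The members and lists were chosen with earlier results of these data known. The genes named are the 10 members, the 4 genes of each list with the smallest p on polysomes and the 2 with the smallest p in the light fraction, the 3 profiles nearest to each of 5 factors, neighbours and pseudogenes of members, and others said to be named after their values were seen. All 10 members matched RefSeq genes by symbol, and 1 of the listed symbols, an older name, has no row in the table. The lists' statistics are descriptions without a set test.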

Additional observations from a re-analysis of the deposited data

Results flagged for a closer look

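The effect of sorafenib differed between the polysome and the light fraction, by the test of the difference itself, for 4 members. The difference of polysome minus light on the log2 scale was 1.74 for ATF4, 1.94 for DDIT3, 2.05 for PPP1R15A and 1.78 for GDF15, each more positive on polysomes. Of the 77 tested genes in the related lists, 15 differed in the same direction and 5 in the opposite one, against 12.8% and 10.7% of all genes.

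Among the other ATF4 and CHOP targets, the enzymes PHGDH, SHMT2 and PCK2 had differences of 1.56, 1.66 and 1.92. The transporter genes SLC3A2 and SLC7A1 had 1.84 and 1.43, DDIT4 had 1.57 and STC2, a secreted glycoprotein, had 1.89 (SLC7A1 and STC2, like ATF6B below, were named after their values were seen). EIF4EBP1 went the other way, with -2.22. Among mRNAs with upstream reading frames EPRS had 3.07 and C19orf48 had 0.97, and among bZIP factors JUN had 2.13, ATF6B 1.13 and NFE2L1 1.67. The call of C19orf48 was kept in 18 of 34 alternatives. Of eIF2, its exchange factor and related genes, EIF2S3 had 1.43, EIF2A 1.69 and EIF2B4 1.50, whereas EIF2S2 had -1.65, EIF2B1 -2.19, MCTS1 -2.89 and DENR -1.17.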

How the results depend on the processing

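Between 32 and 35 alternatives were run for each member and comparison. ATF4, DDIT3 and PPP1R15A kept the call of their difference between fractions in 34 of 34 (1.45 to 2.28, 1.52 to 2.65 and 1.75 to 2.57), and ATF3, DDIT3, PPP1R15A, NUPR1 and GDF15 kept their polysome rise in all run. Scaling moved the median of all genes: with library totals it was -0.11 on polysomes, 0.31 in the light fraction, -0.26 in the difference, and 0.60 and 0.82 for polysome over light in sorafenib and vehicle cells. Members that rose in the light fraction (3) numbered 5 with library totals, with voom and without sorafenib culture 2. The 1 fall on polysomes became 0 with no low-count filter. Members higher on polysomes than light in sorafenib cells (2) numbered 8 with library totals, 9 with TMM within each fraction, 7 with no filter and 5 with voom. They numbered 1 with genes of average log2 CPM 3 or more, the 6 libraries of the contrast, or thinning. Of all 14955 genes, 5587 were higher there with library totals and 7041 with TMM within each fraction, against 2002 in the main fit. With no filter 4719 of 45832 were higher. In vehicle cells the 2 higher ones numbered 5 with library totals. They numbered 1 with sorafenib polysome library 1, 2 or 3 as TMM reference, a mean of at least 3, or thinning. The 2 lower ones numbered 0 with library totals or TMM within each fraction. With library totals 7314 of all genes were higher there and 876 lower. The counts were 5932 and 1129 with TMM within each fraction, against 2742 and 2659 in the main fit. Leaving out 1 library gave 5 to 6 rises on polysomes, 2 to 5 in the light fraction, 1 to 5 for polysome over light in sorafenib and 1 to 2 in vehicle cells, and 3 to 5 differences.

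Signs turned only in values that had not passed. For ATF4 on polysomes (-0.20) these were 0.02 with TMM within each fraction or the 6 libraries of the contrast, 0.03 and 0.04 with vehicle polysome library 2 or 3 as reference, 0.00 and 0.02 with sorafenib polysome library 1 or 2, 0.20 with no filter, 0.06 without both shallow libraries, and -0.32 to 0.07 leaving out libraries. In the light fraction DDIT3 was -0.06 after thinning and -0.16 to 0.74 leaving out libraries, and CEBPG -0.01 to 0.97. For polysome over light in sorafenib cells, ATF5 (-0.08) was 0.52 with library totals or no filter, 0.71 with TMM within each fraction, 0.06 and 0.08 with vehicle polysome library 2 or 3 as reference, 0.38 after thinning and -0.15 to 0.54 leaving out libraries, and NUPR1 (0.13) was -0.06 with a mean of at least 3, -0.09 after thinning, 0.00 without both shallow libraries and -0.02 to 0.61. In vehicle cells ATF5 was 0.63 and 0.39 and PPP1R15A 0.84 and 0.57 with library totals and TMM within each fraction; PPP1R15A was also 0.05 with no filter, 0.06 with voom and -0.42 to 0.34 leaving out libraries; GDF15 was 0.20 with library totals, and ATF3 -0.37 to 0.46. The difference for ATF5 was -0.11 with library totals, -0.02 without both shallow libraries and -0.03 without sorafenib culture 2, and for CEBPG -0.23 without both shallow libraries. The median of all genes on polysomes also moved, from -0.26 to -0.03 with TMM within each fraction and to 0 with no filter. For polysome over light in vehicle cells it moved from -0.06 to 0.82 with library totals and 0.58 with TMM within each fraction. The cause of the turned signs was not tested.

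Counts over all genes moved by more than 1.5 times in places: falls on polysomes (4306) ranged from 1663 to 5118, rises in the light fraction (1752) from 840 to 3650, and rises of polysome over light in sorafenib cells (2002) from 663 to 7041; falls in the light fraction without sorafenib light library 1 were 1412. With culture as a replicate block for the fraction comparisons, and the shared number as a block between treatments, members that rose stayed at 6 on polysomes and 3 in the light fraction, and 3 rose in sorafenib and 3 fell in vehicle cells for polysome over light. Deviations of libraries that share a number across treatments correlated at -0.32 to 0.02. Fractions of 1 culture also correlated weakly (-0.06 to 0.41), so these values cannot tell whether the numbers pair samples. The block changed no other member's call than those given for CEBPG and GDF15. With culture as a block the difference between the effects was 1.82 for ATF4 (edgeR adjusted p = 0.00178) and 2.17 for DDIT3 (adjusted p = 0.00013). It was 2.11 for PPP1R15A (adjusted p = 6.22e-05) and 1.82 for GDF15 (adjusted p = 0.000532). Depth limits the sorafenib light fraction most, where ATF3 rests on 4 to 31 counts.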

Other observations

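A list of 13 tested genes holds subunits of eIF2, the factor whose phosphorylation starts the response, and of its exchange factor eIF2B, with related initiation factors. On polysomes 3 rose (23.1%) and 3 fell (23.1%), against 20.9% and 28.8% of all genes, with a median log2 fold change of 0.03. In the light fraction 5 rose (38.5%) and 3 fell (23.1%), against 11.7% and 17.7% of all genes, with a median of -0.12. EIF2S1, which encodes the phosphorylated alpha subunit of eIF2, rose on polysomes (1.05 ± 0.31, edgeR adjusted p = 0.00831). The eIF2B subunit genes EIF2B3 and EIF2B4 rose there too (1.20 ± 0.20 and 1.31 ± 0.20), and EIF2B1 fell (-0.98 ± 0.25). Among light libraries EIF2B1, EIF2B2, EIF2B3 and EIF2S2 rose (1.22, 1.18, 0.95 and 1.11), while EIF2S3, EIF2A and EIF2D fell (-0.97, -1.19 and -1.41). EIF2S3 and EIF2A each kept this call in 28 of 35 alternatives and EIF2D in 34 of 35, and the genes that rose kept theirs in 33 or 34 of 35. EIF2S1, EIF2S2, EIF2S3, EIF2A, EIF2B1 and EIF2B2 were named after their values were seen.

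MCTS1 and DENR encode both parts of a heterodimer that acts in reinitiation after upstream reading frames. MCTS1 fell on polysomes (-1.36 ± 0.24, edgeR adjusted p = 0.000134) and rose in the light fraction (1.53 ± 0.25, adjusted p = 0.000309). DENR fell on polysomes (-1.29 ± 0.20, adjusted p = 5.26e-05) with -0.12 ± 0.21 in the light fraction (adjusted p = 0.698). In the test of the difference 3 of the 13 were more positive on polysomes (23.1%) and 4 more negative (30.8%), against 12.8% and 10.7% of all genes. The differences of polysome minus light were -2.89 ± 0.35 for MCTS1 and -1.17 ± 0.29 for DENR. The call of MCTS1 was kept in 34 of 34 alternatives and that of DENR in 28 of 34.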
